A study of Mus musculus with 18 samples.

Results

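Basophils with loxP-flanked Cebpa alleles (Cebpaf/f, called floxed below) were compared with basophils of normal genotype (Cebpa+/+, called wild type), both grown with 4-hydroxytamoxifen, an oestrogen receptor ligand that switches on the CreER recombinase. Its samples were taken by their titles. It holds 6 of the 18 arrays of the series, 3 a side, and the probes with 1 gene symbol, which are 21876 of 26423 probes and stand for 19084 genes. The study asked which genes basophils express under the control of Cebpa. All mice were of strain C57Bl/6, and the genotype label of both sides ends in RosaYFP/creER, a yellow fluorescent reporter and the inducible recombinase, so the treated wild type cells carried recombinase and drug as well. Purified basophils were held for 5 days in medium with 20 ng/ml interleukin-3, with 100 nM of the drug for 5 days in the treated groups. Untreated floxed and untreated wild type basophils, again 3 arrays each, were grown alike without the drug and share no array with the treated comparison. The remaining 6 arrays came from basophils purified from marrow 3 days after an interleukin-3 complex had been injected, and from mast cells grown from marrow with interleukin-3 for 4 weeks. The labels give neither age nor sex, the gate of the sort, the promoter of the recombinase, nor whether replicates were separate mice or pools. The p-values below therefore measure only the spread between these arrays, which may be technical.

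C/EBPα, the protein made from Cebpa, is a leucine zipper transcription factor that steers marrow progenitors towards granulocytes and monocytes and holds back cell division. Basophils and mast cells are related cells that share the high-affinity receptor for IgE, histamine and granule proteases. C/EBPα is a factor of the basophil branch, whereas MITF, a helix-loop-helix leucine zipper factor known from melanocytes, is a factor of the mast cell branch.

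Each value below is a probe intensity after quantile normalization over the 12 arrays of cultured basophils. A number in brackets after a gene is the log2 difference, treated floxed minus treated wild type, ± SE from limma with n = 3 arrays a side, on the scale log2(intensity + 16). A gene counts as higher or lower where its Benjamini-Hochberg adjusted p over all 26423 probes lay under 0.05. Where all 3 arrays of a side read under 30, taken as background, the difference is given as a lower bound of the fold. Before normalization the 12 arrays had median intensities of 24 to 39. For probes brighter than 100, the median SD among arrays of a group was 0.079 to 0.10 log2 units, and no 2 arrays held identical values as deposited. Equal values of a gene on different arrays below arise from the normalization, which gives equal ranks equal values. Brightness depends on the probe, so levels of different genes were not set against each other. Sums over a list, given for a few lists, weigh each gene by the brightness of its probe, so that bright probes dominate them. In RNA from whole cultures, fewer cells of a kind and less RNA per cell cannot be told apart.

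Cebpa, the targeted gene, read 2894, 2746 and 2472 in treated wild type and 68.7, 69.0 and 57.5 in treated floxed cells. All 3 treated floxed arrays lay far below all treated wild type arrays (log2 difference -5.07 ± 0.10, limma adjusted p = 1.99e-11). Without the drug it read 2219, 2533 and 2166 in untreated wild type and 1019, 903 and 926 in untreated floxed cells, so that the floxed cells were lower without any drug (-1.26 ± 0.10, adjusted p = 4.67e-06). The gap widened with the drug (interaction -3.80 ± 0.14, adjusted p = 3.04e-08). The position of the probe relative to the removed stretch is not known from the labels. Every treated difference below also holds whatever separated the genotypes without the drug. The untreated difference is given for most genes shown array by array and not for every gene named.

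Igsf6, an immunoglobulin superfamily gene of myeloid cells, had the lowest log2 difference of all 19084 genes. Its intensity was 11371, 11972 and 11972 in treated wild type and 204, 196 and 213 in treated floxed cells (-5.74 ± 0.085, limma adjusted p = 3.17e-12). It was already lower without the drug, at 12405, 12405 and 11031 in untreated wild type and 2644, 2328 and 2435 in untreated floxed cells (-2.27 ± 0.085), and was further below wild type with it (interaction adjusted p = 1.72e-08). Mitf went the other way. It read 445, 412 and 395 in treated wild type and 1751, 1733 and 1572 in treated floxed cells (1.97 ± 0.081, adjusted p = 4.62e-09). Without the drug Mitf was a little lower in floxed cells (-0.52 ± 0.081, adjusted p = 0.000807), so its direction turned between the treated and untreated comparisons (interaction adjusted p = 9.91e-08). Tpsb2, a tryptase of mast cell granules, read 622, 604 and 615 in treated wild type and 8874, 9541 and 7538 in treated floxed cells (3.78 ± 0.12, adjusted p = 5.08e-10). Without the drug it read 1147, 1131 and 1289 in untreated wild type and 854, 1110.3 and 1102 in untreated floxed cells, and those groups did not pass the test (-0.22 ± 0.12, adjusted p = 0.277).

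**Figure D1:**
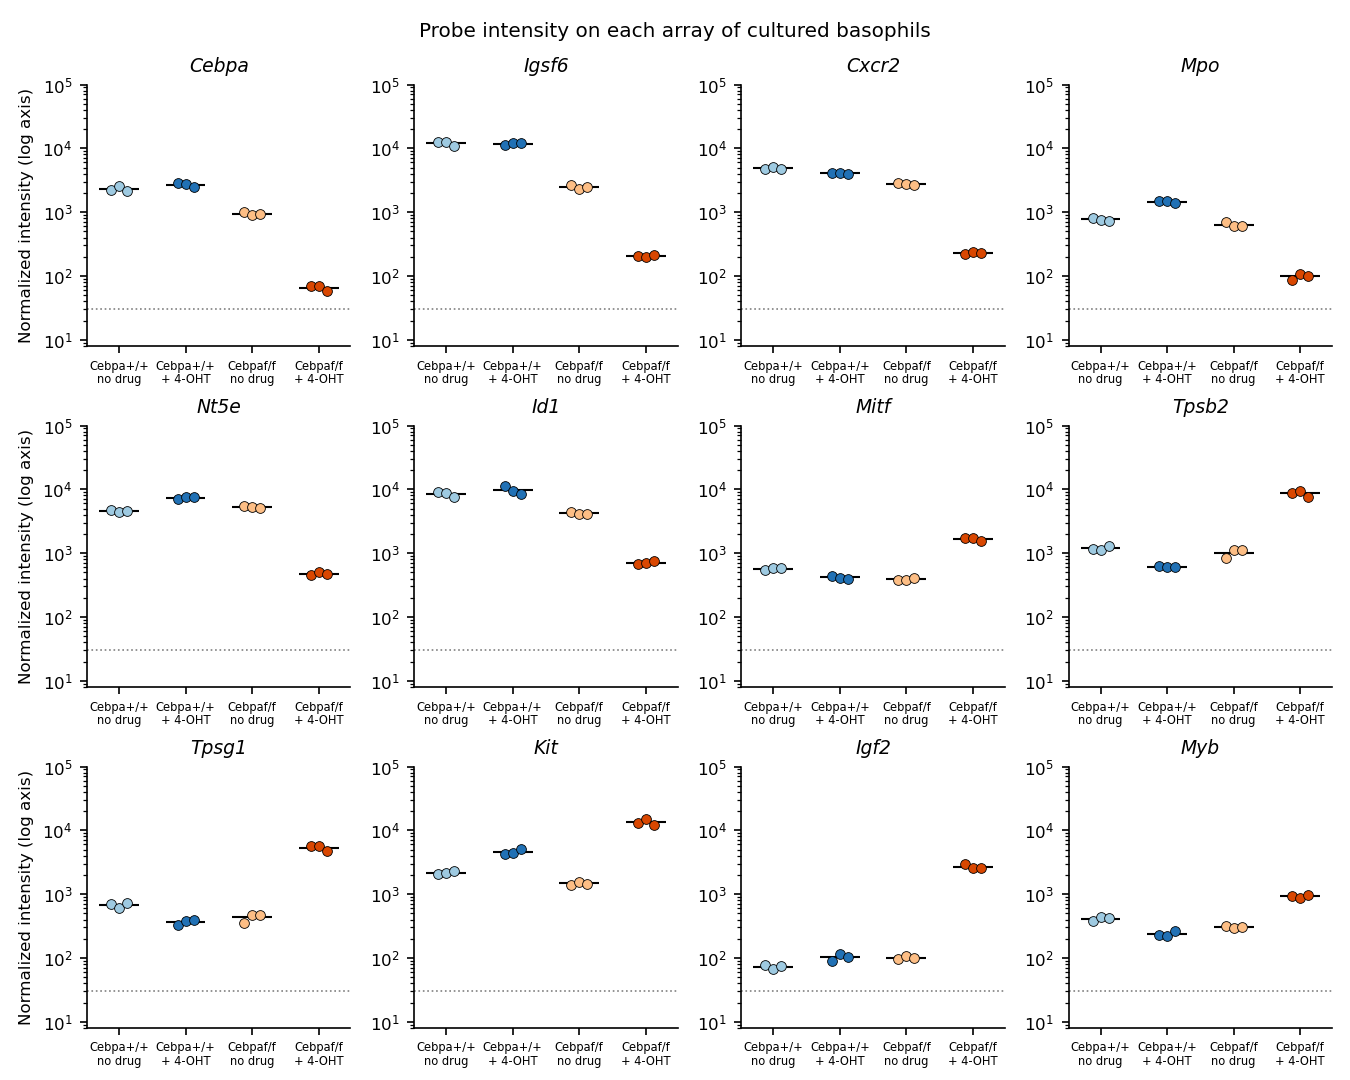
Normalized probe intensity (log axis) of 12 genes on each of the 12 arrays of cultured basophils. Points are arrays, black bars are group means of 3 arrays and the dotted line is the background limit of 30. In each panel the 3 treated floxed arrays lie on 1 side of all other arrays: below them for Cebpa, Igsf6, Cxcr2, Mpo, Nt5e and Id1, and above them for Mitf, Tpsb2, Tpsg1, Kit, Igf2 and Myb.

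The stretch just before the start of a gene is where C/EBP proteins can bind, so the 250 bases upstream of each RefSeq start (GRCm38.p6) were searched on both strands for TTGCNNAA, the consensus letters of a C/EBP site. The windows below show the named genes that held a match, and Igsf6, the gene with the lowest difference. Capitals mark the match, which on the minus strand of the window reads as its reverse complement. Mitf (chr6:97806808-97807057, plus strand) held TTGCGGAA 129 bases before 1 of its 3 starts. Txk (chr5:72736603-72736852, minus strand), a kinase of the Tec family, and Hs6st2 (chrX:51681603-51681852, minus strand), which adds sulfate to heparan chains, held a match 148 and 248 bases before theirs. Igsf6 (chr7:121074531-121074780, minus strand) held none.
Mitf: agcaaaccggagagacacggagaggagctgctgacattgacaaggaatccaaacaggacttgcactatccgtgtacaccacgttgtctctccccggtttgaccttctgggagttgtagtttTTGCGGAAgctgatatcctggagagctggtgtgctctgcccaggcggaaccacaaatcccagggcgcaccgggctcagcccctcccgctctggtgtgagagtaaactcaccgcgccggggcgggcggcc
Txk: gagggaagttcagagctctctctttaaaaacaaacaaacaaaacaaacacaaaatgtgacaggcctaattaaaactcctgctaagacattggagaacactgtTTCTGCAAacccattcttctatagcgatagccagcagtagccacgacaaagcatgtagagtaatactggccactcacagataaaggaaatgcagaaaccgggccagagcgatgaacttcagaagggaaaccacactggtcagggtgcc
Hs6st2: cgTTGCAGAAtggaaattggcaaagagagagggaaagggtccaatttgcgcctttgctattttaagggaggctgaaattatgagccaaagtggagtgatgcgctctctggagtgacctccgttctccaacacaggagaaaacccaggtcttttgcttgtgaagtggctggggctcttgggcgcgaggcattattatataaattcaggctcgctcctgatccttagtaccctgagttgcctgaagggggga
Igsf6: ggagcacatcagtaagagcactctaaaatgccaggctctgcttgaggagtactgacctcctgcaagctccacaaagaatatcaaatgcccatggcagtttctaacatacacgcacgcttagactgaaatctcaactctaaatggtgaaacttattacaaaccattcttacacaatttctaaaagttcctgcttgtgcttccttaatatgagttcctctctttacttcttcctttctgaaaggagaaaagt
Of 31 named genes, 24 had an entry with 35 starts in all, and 3 of these genes held TTGCNNAA. All 3 were higher in treated floxed cells. Over all 18476 starts of measured genes, 8.41% held it, against 10.5% of 554 starts of genes at least 2-fold lower and 7.49% of 654 starts of genes at least 2-fold higher. The E-box CACGTG, letters that MITF can bind, was counted apart from the first motif. It stood before 7.24%, 6.32% and 6.73% of the same starts. These shares are descriptions of letters in a window and were not tested.

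In all, 6499 of 19084 genes passed the treated comparison (34.1%), 3406 of them higher (17.8%) and 3093 lower (16.2%) in floxed cells. The median over all genes was 0.0001. At least 2-fold differences were found for 621 higher (3.25%) and 556 lower genes (2.91%). These shares are the background against which the treated counts of each group below are read. They run over all genes, dim ones included. Before normalization, 47.3% to 51.7% of the probes on each treated array read above the background limit of intensity. Shares among expressed genes alone were not worked out. A count above the given shares therefore does not by itself set a list apart from other expressed genes. Without the drug 9.39% of genes were higher and 7.90% lower, and 6.42% passed the interaction upwards and 6.58% downwards. Counted over probes, 7931 passed, 4077 higher (15.4%) and 3854 lower (14.6%), so that 51.4% of them were higher. That split was 62.0% higher without between-array normalization, so directions of small differences depend on the scaling.

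**Figure D2:**
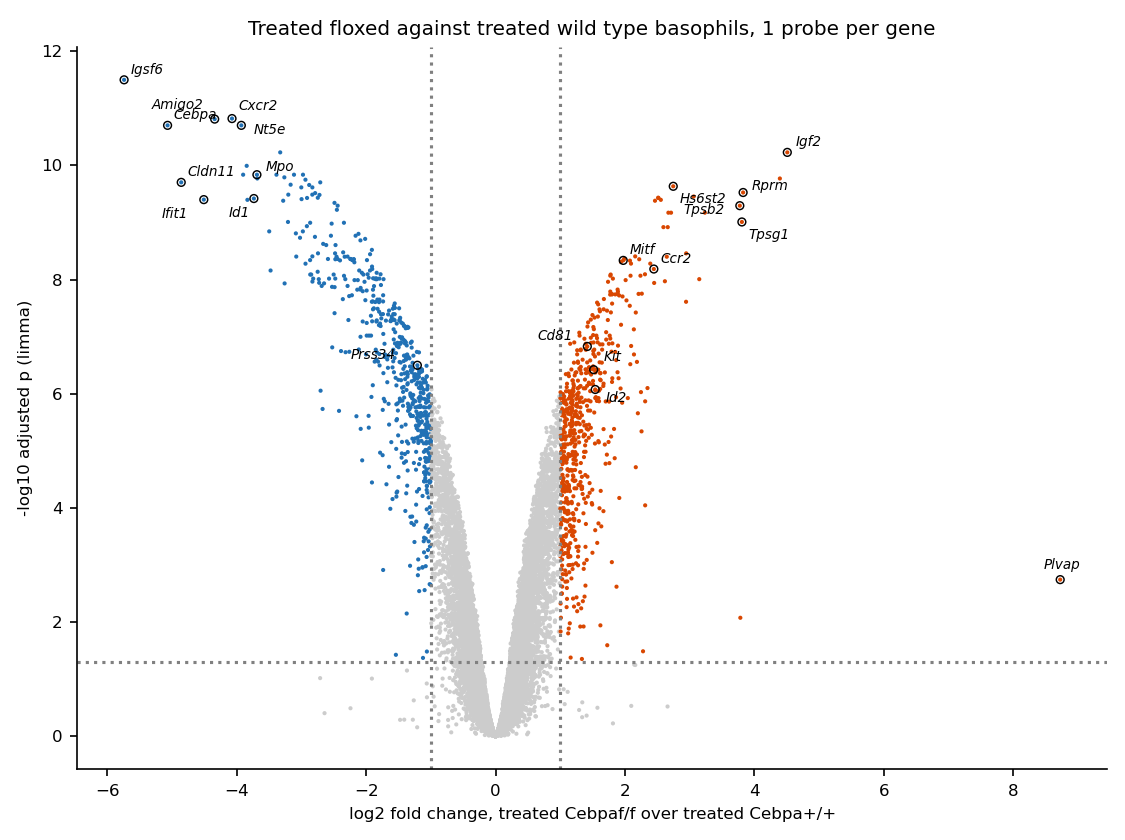
Log2 fold change, treated floxed over treated wild type, against -log10 of the limma adjusted p for 19084 genes, 1 probe each. Blue and orange points are the 556 genes at least 2-fold lower and the 621 at least 2-fold higher past the test (dotted lines), and circled genes are named. The leftmost points are Igsf6 and Cebpa. The point at the far right, Plvap, has a probe that read background on all treated wild type arrays, so its horizontal position depends on the offset of 16.

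Mcpt8, Cd200r3, Fcer1a, Hdc and Prss34, defining markers of basophils, were far above background on both sides, and Itga2 was above it in treated wild type cells only. Mcpt8, the basophil granule protease known as mMCP-8, read 45980.2, 49517 and 49517 in treated wild type and 49517, 57785 and 45980.2 in treated floxed cells, and the groups overlapped. As these levels lay near the top of the scale, where the deposited values end at 65478, a rise of Mcpt8 may not have shown. Cd200r3, an activating receptor of basophils, read 26747, 26747 and 26053 in treated wild type and 23885, 23486 and 26747 in treated floxed cells. Neither passed the test. Fcer1a, the IgE-binding chain of the IgE receptor, was higher (1.02 ± 0.10). Hdc, which makes histamine, was slightly lower (-0.30 ± 0.088), a call lost without treated wild type array 2 or 3 or treated floxed array 2 or 3, with median scaling, without between-array normalization and in a fit of the treated groups alone. Prss34, a basophil tryptase also called mMCP-11, read 47633, 47633 and 43286 in treated wild type and 18850.2, 20722 and 20359 in treated floxed cells (-1.21 ± 0.081, limma adjusted p = 3.17e-07), without overlap, and did not pass without the drug (-0.22 ± 0.081). Itga2, the collagen-binding integrin chain known as CD49b by which basophils are stained, was dim, at 80.7, 82.2 and 86.2 in treated wild type cells and under 30 on all 3 arrays in treated floxed cells. Of 21 basophil markers measured, 3 were higher and 7 lower, at a median of -0.078. The lower ones were 4 with median scaling, without between-array normalization, and without treated wild type array 2 or array 3. At least 2-fold differences past the test were found for 2 higher genes of the list, Fcer1a and Il13 (1.49 ± 0.20), and for 3 lower ones. No value is given here for Il3ra, which was also taken as a defining marker.

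The genes with the lowest differences that also passed the interaction came from several functions. Cldn11, a tight junction claudin, read 767, 724 and 743 in treated wild type cells and under 30 on all 3 arrays in treated floxed cells (at least 24.8-fold lower). Without the drug Cldn11 read 643, 693 and 683 in untreated wild type and 580.0, 466 and 496 in untreated floxed cells. The untreated floxed arrays were slightly lower, not past the test (-0.38 ± 0.13, limma adjusted p = 0.0787). Amigo2, an adhesion protein with leucine-rich repeats, read 2563, 2808 and 2557 in treated wild type and 111, 117 and 117 in treated floxed cells (-4.34 ± 0.083, and -1.60 ± 0.083 without the drug), and its other probe passed the same way. Nt5e, the surface enzyme CD73 that makes adenosine from AMP, read 7059, 7586 and 7562 in treated wild type and 448, 498 and 468 in treated floxed cells (-3.93 ± 0.079, limma adjusted p = 1.99e-11). It was slightly higher, not past the test, in floxed cells without the drug (0.24 ± 0.079). Id1, an inhibitor of helix-loop-helix factors, read 11283, 9306 and 8453 in treated wild type and 665, 709 and 749 in treated floxed cells (-3.74 ± 0.11, and -1.01 ± 0.11 without the drug), with 4426, 4051 and 4149.8 in untreated floxed cells in between.

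Further genes of that ranking were the metabolic enzymes Acod1, which makes itaconate in macrophages (-3.48 ± 0.15), and Xdh, xanthine dehydrogenase of purine breakdown (-3.39 ± 0.087). Others were the organic cation transporter Slc22a4 (-3.33 ± 0.076), the membrane-spanning Ms4a6c (-3.26 ± 0.085), the interferon-induced Ifi27l2a (-3.90 ± 0.099), the transcript F630028O10Rik (-3.85 ± 0.093) and Defb40, a beta-defensin gene (at least 7.15-fold lower). All of these were also lower without the drug, from -1.26 ± 0.087 for Xdh to -2.83 ± 0.12 for Defb40. The treated arrays of both genotypes did not overlap for any of them, which the rule for naming them required.

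At the other end stood Igf2, an imprinted growth factor of the embryo. It read 90.3, 114 and 103 in treated wild type and 2964, 2551 and 2525 in treated floxed cells (4.51 ± 0.10, limma adjusted p = 5.92e-11). Without the drug its levels were near those of treated wild type cells, though the untreated floxed arrays passed the test against untreated wild type (0.38 ± 0.10, adjusted p = 0.0232), at 77.6, 67.1 and 74.3 in untreated wild type and 95.2, 106 and 98.9 in untreated floxed cells. Mgarp, a mitochondrial protein gene, read 33.2, 19.2 and 25.7 in treated wild type and 811, 940.2 and 834 in treated floxed cells (4.39 ± 0.12) and was also higher without the drug (2.66 ± 0.12). As 2 of its 3 treated wild type arrays lay under 30, the size of its difference depends on the offset of 16. Rprm, a cell cycle brake of the G2 phase, read 178, 182 and 181 in treated wild type and 3288, 2626 and 2468 in treated floxed cells (3.83 ± 0.11, and 0.80 ± 0.11 without the drug). Tpsg1, a tryptase anchored in the membrane, read 332, 378 and 393 in treated wild type and 5716, 5591 and 4785 in treated floxed cells (3.81 ± 0.13) and was lower in floxed cells without the drug (-0.63 ± 0.13). For these 4 genes each treated floxed array lay above every other array of cultured basophils, by far more than the spread within groups.

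The same ranking named the ciliary gene Ahi1 (3.24 ± 0.11), Ctla2b, a cysteine protease inhibitor (3.06 ± 0.091), the kinase Txk (2.95 ± 0.12), the guidance ligand Efna5 (2.95 ± 0.15) and the sulfotransferase Hs6st2 (2.75 ± 0.077). It also named Phlda1 (2.67 ± 0.088), the nucleotide-gated channel Cnga1 (2.66 ± 0.093), the lipid carrier Apoe (2.65 ± 0.11) and the transcripts Gm5544 (at least 9.09-fold higher) and Gm4956 (2.71 ± 0.089). Different shapes lay behind these differences. Hs6st2 was 4037, 4436 and 4033 in treated floxed cells and 486, 458 and 481 without the drug, against 616, 590.5 and 614 in treated wild type cells. Phlda1 instead read 921, 846 and 1020.1 in treated wild type cells and 3349.5, 3703 and 3668 in untreated ones, while the floxed cells read 6214, 5973 and 5791 with and 6989.8, 6888 and 6804 without the drug. For Phlda1 and Gm4956 the wild type cells were lower with the drug (-1.93 and -2.60, treated minus untreated), while floxed cells differed between drug and no drug by -0.20 and -0.17.

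Among the brightest probes with at least a 2-fold difference, the lower genes were Prss34, the chemokines Ccl3 (-1.22 ± 0.11, and -0.62 ± 0.11 without the drug) and Ccl6 (-1.91 ± 0.081), Anxa2, a calcium-dependent membrane binder (-1.18 ± 0.088), and Fcgr3, a low-affinity activating IgG receptor (-1.36 ± 0.10). The higher ones were the tetraspanin Cd81 (1.42 ± 0.088), Fcer1a, the inhibitory helix-loop-helix factor Id2 (1.54 ± 0.12), the chymase Cma1 (1.32 ± 0.083) and Glul, glutamine synthetase (1.22 ± 0.17). Anxa2 read 34492, 33251 and 33251 in treated wild type and 14372, 14763 and 15303 in treated floxed cells, and Cd81 read 15995, 14481 and 16957 in treated wild type and 44217, 39271 and 43286 in treated floxed cells. Neither of these was different without the drug past the test (-0.074 ± 0.088 and 0.019 ± 0.088).

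Among the other C/EBP genes, Cebpb, known from emergency granulopoiesis, was lower (-0.81 ± 0.12) and Cebpd, with 1 treated floxed array under 30, was lower (-0.84 ± 0.16). Cebpe, a factor of late granulocytes, was higher (0.64 ± 0.12), as was Cebpg (0.61 ± 0.11), its neighbour on chromosome 7. No member stood near the size of the Cebpa difference. Of the Tribbles genes, Trib2, whose protein drives degradation of C/EBPα, was higher (1.03 ± 0.097), and Trib3 was lower (-1.35 ± 0.11). Over the 9 genes of this list, 3 were higher and 4 lower. Of the 4 MITF relatives measured, Tfec, a factor of macrophages and osteoclasts, was lower (-2.09 ± 0.078), as was Tfe3 (-0.89 ± 0.12), while Mitf was higher. Tfeb was near background, with 5 of 6 treated arrays under 30.

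Transcription factors of blood cells went both ways, with 13 higher and 16 lower among 45 and a median of -0.0083, or 0 with genes at background set to their bound, which turned to 0.086 without between-array normalization. Id2 was higher in every treated floxed array, at 11214, 9269 and 10496 in treated wild type and 29713, 30542 and 29713 in treated floxed cells (1.54 ± 0.12, and -0.15 ± 0.12 without the drug), whereas its relative Id1 was lower. Myb, a factor of progenitor growth, read 225, 218 and 264 in treated wild type and 928, 879.8 and 976 in treated floxed cells (1.91 ± 0.094) and was lower in floxed cells without the drug (-0.41 ± 0.094). Ikzf2, the Ikaros relative Helios, was higher (1.85 ± 0.12). Nfil3, a leucine zipper factor of several immune lineages, was lower at 2197, 2476 and 2124 in treated wild type and 578, 610.4 and 587 in treated floxed cells (-1.91 ± 0.082, and -0.68 ± 0.082 without the drug). Hlf, a leucine zipper factor of stem cells, read 57.1, 62.5 and 70.8 in treated floxed cells and lay under background in treated wild type cells (at least 2.11-fold higher).

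A list of genes that textbooks name as C/EBPα targets held 19 measured members, with 5 higher and 13 lower and a median of -0.93, or -0.81 with genes at background set to their bound. Klf5, a zinc finger factor of granulocytes, read 833, 866 and 845 in treated wild type and 105, 119 and 86.1 in treated floxed cells (-2.87 ± 0.12, and -0.82 ± 0.12 without the drug). Also lower were the granule genes Mpo (-3.69 ± 0.095), Elane (at least 3.27-fold lower) and Ltf (-1.74 ± 0.093), and Csf2ra, the alpha chain of the GM-CSF receptor (-1.43 ± 0.08). Without the drug the same list had 3 higher and 8 lower at a median of -0.29. Of its members, 2 up and 8 down passed the interaction.

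Of 20 mast cell markers measured, 12 were higher and 1 lower (background 17.8% and 16.2%), at a median of 0.59, and without the drug 1 higher and 6 lower at -0.05. With median scaling 10 were higher with the drug. Kit, the receptor for stem cell factor on which mast cells depend, read 4324, 4479 and 5109.5 in treated wild type and 13048, 14902 and 12018 in treated floxed cells (1.52 ± 0.10, limma adjusted p = 3.79e-07). Without the drug Kit was lower in floxed cells, at 2040.1, 2162 and 2285 in untreated wild type and 1391, 1572 and 1452 in untreated floxed cells (-0.55 ± 0.10). Tph1, the first enzyme of serotonin synthesis, read 2180.5, 2443 and 2074 in treated wild type and 8755, 7792 and 7721 in treated floxed cells (1.85 ± 0.09). Treated floxed arrays of Tph1 lay above all treated wild type arrays, and the untreated genotypes did not differ past the test (-0.21 ± 0.09).

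The exception on the lower side was Slc6a4, the serotonin transporter, at 4732, 3538 and 3236 in treated wild type and 511, 554 and 505 in treated floxed cells (-2.82 ± 0.13, and -1.07 ± 0.13 without the drug). Cpa3, mast cell carboxypeptidase, read 62054 or more on every treated array, near the top of the scale, and no fold is given. Summed over the list, intensity was 116152 to 118452 on treated wild type arrays and 177031 to 189604 on treated floxed arrays. Whether mast cells in the cultures had a part in these differences was not tested.

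Among granule proteases and their inhibitors, 7 were higher and 2 lower of 18, at a median of 0.17, or 0.037 with genes at background set to their bound. Cma1, a chymase, read 10368, 11283 and 10919 in treated wild type and 29255, 26415 and 25662 in treated floxed cells (1.32 ± 0.083, and -0.50 ± 0.083 without the drug), and the granzyme Gzmc read 42.5, 17.3 and 47.5 in treated wild type and 239.9, 194 and 194 in treated floxed cells (2.17 ± 0.24, and 0.31 ± 0.24 without the drug). Ctsg, cathepsin G, was higher (0.99 ± 0.14, and 0.31 ± 0.14 without the drug). On the lower side stood Prss34 and Serpinb6a, an inhibitor of serine proteases (-0.79 ± 0.12). Gzma and Mcpt2, neither past the test with the drug, were far lower in floxed cells without it (-3.17 ± 0.088 and -3.10 ± 0.19).

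Genes that make and load amine mediators and the heparin-like core of granules had 8 higher and 4 lower among 19. Ddc, which makes serotonin from its precursor, read 149.9, 149 and 141 in treated wild type and 910.4, 923 and 909 in treated floxed cells (2.51 ± 0.076, and 0.93 ± 0.076 without the drug). The sulfotransferases Hs6st2 and Hs6st1 (1.31 ± 0.15) and Ndst2 (0.95 ± 0.099), which builds heparin in mast cells, were higher. Among serotonin genes the synthesis enzymes Tph1 and Ddc were higher and the uptake transporter Slc6a4 was lower.

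The IgE receptor and its first signalling proteins had 6 higher and 6 lower among 21, a balance that turned to 8 and 4 without between-array normalization. Fcer1a read 10496, 11078 and 11665 in treated wild type and 21789, 21708 and 24114 in treated floxed cells, above all treated wild type arrays (1.02 ± 0.10), and was also higher without the drug (0.54 ± 0.10). Gab2, the adaptor of the complementary signalling route, was lower at 819, 763 and 743 in treated wild type and 342, 354 and 273 in treated floxed cells (-1.23 ± 0.11, and -0.24 ± 0.11 without the drug). Pik3cg, the kinase p110 gamma, was lower (-0.75 ± 0.082), and the adaptor Lat was higher (0.70 ± 0.11).

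Of 22 genes of granule exocytosis, 3 were higher and 8 lower, at a median of -0.20. Lyst, the regulator of granule size that is mutated in Chediak-Higashi syndrome, read 375, 395 and 383 in treated wild type and 56.0, 50.8 and 59.4 in treated floxed cells (-2.49 ± 0.078). The membrane fusion proteins Stx3 (-1.80 ± 0.11) and Stx11 (-1.79 ± 0.09) were lower, with Stx11 at 3582, 3489 and 2968 in treated wild type and 943, 905 and 1006 in treated floxed cells. All 3 were lower without the drug too (-1.14 ± 0.078, -0.99 ± 0.11 and -0.91 ± 0.09) and passed the interaction. The granule Rab protein gene Rab37 (0.73 ± 0.11) was higher.

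Lipid mediator genes had 5 higher and 10 lower among 20. Ltc4s, the last enzyme of cysteinyl leukotriene synthesis, read 1837, 1717 and 1636 in treated wild type and 6468, 6979 and 6573 in treated floxed cells (1.94 ± 0.081, limma adjusted p = 4.92e-09, and 0.83 ± 0.081 without the drug). Tbxas1, thromboxane synthase, was higher (0.95 ± 0.087). The prostaglandin E receptors Ptger3 (-1.15 ± 0.085) and Ptger4 (-1.06 ± 0.11) and the lipoxygenases Alox15 (-1.61 ± 0.089) and Alox12 (-1.10 ± 0.12) were lower. Alox15 was as low without the drug (-1.73 ± 0.089) and did not pass the interaction.

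Receptors that guide leukocytes had 2 higher and 13 lower among 19 at a median of -0.94. Cxcr2, the receptor for CXC chemokines that draw neutrophils, read 4122, 4145 and 4009.8 in treated wild type and 221, 235 and 228 in treated floxed cells (-4.07 ± 0.076, limma adjusted p = 1.51e-11, and -0.82 ± 0.076 without the drug), and was 2810.0, 2794 and 2645 in untreated floxed cells. S1pr1, the sphingosine phosphate receptor for leaving tissue, read 1126, 1076 and 1352 in treated wild type and 214, 181 and 203 in treated floxed cells (-2.48 ± 0.10, and -0.84 ± 0.10 without the drug). Cxcr1 read 677, 796 and 688 in treated wild type and 134, 140.2 and 113 in treated floxed cells (-2.34 ± 0.10), although it was higher in floxed cells without the drug (0.55 ± 0.10). The complement receptor C3ar1 (-2.11 ± 0.13) was lower as well.

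The 2 receptors on the higher side are receptors of monocytes. Ccr2, which binds CCL2, read 687, 695 and 762 in treated wild type and 3971, 3848 and 4071 in treated floxed cells (2.45 ± 0.10, and 0.16 ± 0.10 without the drug), and its other probe passed the same way. Cx3cr1, the fractalkine receptor, read 883, 739.7 and 688 in treated wild type and 2516, 2398 and 2159.8 in treated floxed cells (1.60 ± 0.12), and 904, 832 and 841 against 423, 548 and 533 without the drug (-0.77 ± 0.12). Both also belong to the monocyte and macrophage markers described below, most of which were lower.

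Chemokine ligands had 2 higher and 12 lower among 21. Ccl6 read 44217, 44217 and 47633 in treated wild type and 12405, 11254 and 12548 in treated floxed cells (-1.91 ± 0.081, and -0.99 ± 0.081 without the drug). Ccl7 (-1.84 ± 0.083), Ccl12 (-1.73 ± 0.078) and Ccl2 (-1.51 ± 0.13), ligands of CCR2, were lower, and were as low or lower without the drug (-2.28 ± 0.083, -1.84 ± 0.078 and -1.93 ± 0.13). Ccl3 read 49517, 45980.2 and 57785 in treated wild type and 22035, 20133 and 23486 in treated floxed cells, with no overlap.

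Cytokines went both ways, with 6 higher and 8 lower among 24, and 8 and 5 without between-array normalization. The lower ones were also 5 with median scaling, without treated wild type array 1 and without treated floxed array 1. Csf1, the macrophage growth factor, read 6299, 6328 and 6050.3 in treated wild type and 1551, 1670.0 and 1387 in treated floxed cells (-2.01 ± 0.10, and -0.69 ± 0.10 without the drug). Il1a (-1.41 ± 0.08) and Il18 (-1.07 ± 0.11) were lower. Besides Igf2, higher genes were Lif (1.57 ± 0.12) and Il13 (1.49 ± 0.20), the latter at 84.9, 79.8 and 91.7 in treated floxed cells.

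Cytokine and growth factor receptors had 6 higher and 15 lower among 33. Il18r1, the binding chain for interleukin-18, read 2574, 2827 and 3089.5 in treated wild type and 347, 361 and 448 in treated floxed cells (-2.83 ± 0.11), and its partner Il18rap was lower at 1211, 1214 and 1263 in treated wild type and 403, 419 and 359 in treated floxed cells (-1.61 ± 0.088). Il7r, the interleukin-7 receptor chain that also serves thymic stromal lymphopoietin, was lower (-2.34 ± 0.08), and Il10ra, of the interleukin-10 receptor, was higher (1.56 ± 0.092). Il18r1 and Il7r were lower without the drug too (-1.61 ± 0.11 and -0.97 ± 0.08), but Il18rap was not (0.005 ± 0.088).

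Receptors for microbial patterns had 1 higher and 15 lower among 24, at a median of -0.44, or -0.38 with genes at background set to their bound. The C-type lectins Clec4d, at 6246, 6463 and 7107 in treated wild type and 874, 919 and 791 in treated floxed cells (-2.92 ± 0.10, and -1.51 ± 0.10 without the drug), and Clec4e (-2.53 ± 0.087) sense mycobacterial glycolipids. Tlr13, a sensor of bacterial ribosomal RNA, read 845, 875 and 857 in treated wild type and 102, 106 and 113 in treated floxed cells (-2.83 ± 0.08, and -1.46 ± 0.08 without the drug). The beta-glucan receptor Clec7a, Dectin-1, was lower (-1.41 ± 0.08). On the higher side the list had Ly96, a partner of Toll-like receptors (0.62 ± 0.14).

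Immunoglobulin-like receptors had 3 higher and 11 lower among 26. Besides Igsf6, the IgG receptors Fcgr4 (-2.19 ± 0.09), Fcgr2b (-1.56 ± 0.086) and Fcgr3 (-1.36 ± 0.10) were lower, with Fcgr2b, the inhibitory one, at 8675, 9004 and 9079 in treated wild type and 2932, 2835 and 3296 in treated floxed cells. Siglecf was dim and lower (-1.46 ± 0.089). Fcgr2b was near wild type without the drug (-0.26 ± 0.086), whereas Fcgr4 was as low there (-2.03 ± 0.09).

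Integrins and adhesion molecules had 6 higher and 14 lower among 30. Itgam, the CD11b chain of the complement receptor of myeloid cells, read 3921, 3898 and 4109 in treated wild type and 649, 708 and 650.0 in treated floxed cells (-2.54 ± 0.092). Itgal, the CD11a chain, was lower at 934, 868 and 791 in treated wild type and 242, 263 and 221 in treated floxed cells (-1.77 ± 0.095). The untreated genotypes differed much less for both (-0.45 ± 0.092 and -0.22 ± 0.095), and both passed the interaction. Vcam1 was lower by about as much with as without the drug (-1.55 ± 0.09 and -1.63 ± 0.09).

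Genes of neutrophil primary granules, first made in promyelocytes, had 1 higher and 4 lower among 8. Mpo, myeloperoxidase, read 1470.1, 1491 and 1397 in treated wild type and 87.1, 108 and 99.6 in treated floxed cells (-3.69 ± 0.095), and Prtn3, proteinase 3, read 611, 719.9 and 752 in treated wild type and 73.6, 76.2 and 103 in treated floxed cells (-2.83 ± 0.13). Ms4a3 (-2.29 ± 0.091) and Elane, neutrophil elastase (at least 3.27-fold lower), were lower as well. None of these 4 passed the test without the drug, from -0.26 ± 0.095 for Mpo to 0.26 ± 0.13 for Prtn3. Ctsg, whose protein is stored in the same granules, was higher at 7376, 7386 and 8567 in treated wild type and 15995, 16957 and 13644 in treated floxed cells.

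Secondary granule and maturation genes had 3 higher and 9 lower among 15, and without the drug 3 higher and 7 lower. S100a9, a calcium-binding protein of neutrophils and monocytes, read 6218, 6192 and 6350.2 in treated wild type and 868, 868 and 1033 in treated floxed cells (-2.74 ± 0.11, and -1.36 ± 0.11 without the drug), and Lcn2, the iron-scavenging lipocalin, read 2569, 3063 and 2823 in treated wild type and 581, 549 and 614 in treated floxed cells (-2.24 ± 0.091, and -0.98 ± 0.091 without the drug). Ngp (at least 3.36-fold lower) and Ltf were lower too. S100a8, the usual partner of S100a9, lay under background on all treated arrays. The summed intensity of the 2 neutrophil lists was 10272 to 11637 and 15962 to 16346 on treated wild type arrays, and 14352 to 17667 and 3728 to 4179 on treated floxed arrays. Without the drug the sums were 9020 to 9861 and 28502 to 31036 on wild type arrays, and 9162 to 11723 and 9994 to 10903 on floxed arrays. The bright probe of Ctsg made up 7376 to 8567 of the first sum on treated wild type and 13644 to 16957 on treated floxed arrays. Whether other granulocytes in the cultures had a part was not tested. Subunit genes of the phagocyte NADPH oxidase, which makes superoxide, had 2 higher and 2 lower among 5, and 0 and 2 with median scaling.

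Of 16 monocyte and macrophage markers measured, 2 were higher and 14 lower, at a median of -1.27, and without the drug 1 higher and 13 lower at -1.36. C1qc, a chain of complement C1q, read 448, 450.1 and 438 in treated wild type and 59.4, 50.8 and 76.7 in treated floxed cells (-2.57 ± 0.12) and 407, 349 and 344 in untreated wild type and 42.4, 40.1 and 44.8 in untreated floxed cells (-2.71 ± 0.12). Marco, a scavenger receptor, read 771, 688 and 687 in treated wild type and 131, 105 and 120.0 in treated floxed cells (-2.44 ± 0.099, and -1.51 ± 0.099 without the drug). C1qb (-2.08 ± 0.19) and Msr1 (-1.85 ± 0.084) were lower, and C1qb was lower still without the drug (-3.13 ± 0.19). Summed intensity was 17771 to 18499 on treated wild type and 13646 to 13868 on treated floxed arrays, and 17054 to 18455 and 13064 to 14254 without the drug. The treated sums include the 2 higher genes, Ccr2 and Cx3cr1, so the 14 lower genes fell by more than these sums show. The part of macrophages in the lower genes of the treated comparison was not tested.

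Eosinophil markers split. Prg2, the major basic protein gene, read 3145, 2928 and 2972 in treated wild type and 10261, 10322 and 10461 in treated floxed cells (1.77 ± 0.079, and 0.97 ± 0.079 without the drug), and Epx, eosinophil peroxidase (0.61 ± 0.15), was higher, whereas Alox15, Siglecf, Ccr3 (-1.06 ± 0.13) and Il5ra (at least 1.52-fold lower) were lower, 3 higher and 4 lower among 7. Platelet and megakaryocyte genes had 0 higher and 6 lower among 8, led by Ppbp (-0.85 ± 0.11), and 3 lower without treated wild type array 1 or without treated floxed array 3. B cell markers had 0 higher and 3 lower among 9, T and NK cell markers 1 higher and 2 lower among 12, dendritic cell markers 1 higher and 6 lower among 12 and erythroid markers 1 higher and 1 lower among 8.

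Stem and progenitor markers had 7 higher and 2 lower among 12, at a median of 0.32. Cd34, a sialomucin of progenitors and of mast cells, read 2516, 2450.1 and 2437 in treated wild type and 6214, 6280.1 and 7107 in treated floxed cells (1.40 ± 0.088) and was as much higher without the drug (1.45 ± 0.088). Angpt1 (0.86 ± 0.11) and Meis1 (0.81 ± 0.10) were higher, and Cd93 was lower (-0.79 ± 0.075). Kit and Myb of this list, by contrast, were lower in floxed cells without the drug.

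**Figure D3:**
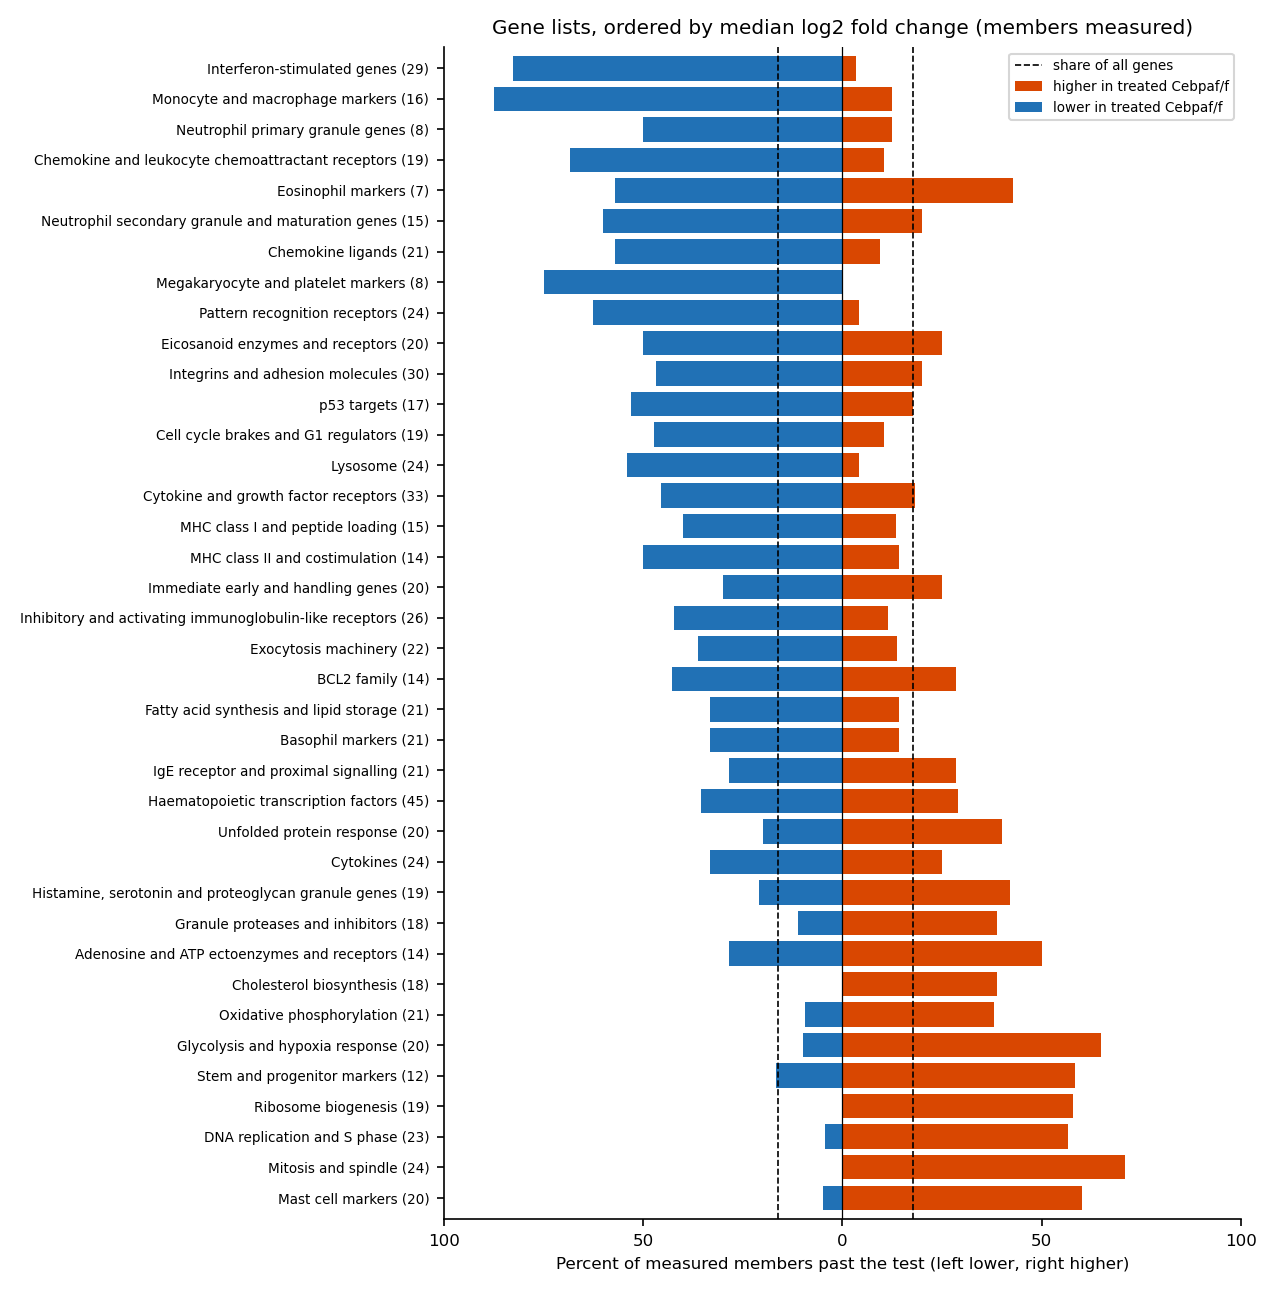
Share of the measured members of gene lists that were higher (right, orange) or lower (left, blue) in treated floxed than in treated wild type cells past the limma test, with the number measured in brackets and lists ordered by median log2 fold change. Lists of oestrogen receptor targets, sex-specific genes, housekeeping genes and erythroid, T and NK, dendritic and B cell markers are not drawn. The imprinted, aryl hydrocarbon receptor, NADPH oxidase, MITF, C/EBP and C/EBPα target lists are left out as well. Dashed lines give the shares over all genes, 17.8% higher and 16.2% lower. Interferon-stimulated genes and macrophage markers have the longest blue bars at the top, and mitosis genes, glycolysis and hypoxia genes and mast cell markers, near the bottom, the longest orange bars, of which the first 2 shrink with median scaling.

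Of 29 interferon-stimulated genes measured, 1 was higher and 24 lower, at a median of -1.74, and without the drug 0 higher and 25 lower at -1.53. Ifit1, which binds viral RNA, read 1157, 1421 and 1110.3 in treated wild type and 43.4, 31.3 and 41.2 in treated floxed cells (-4.51 ± 0.14) and 1194, 1175 and 1189.9 in untreated wild type and 62.9, 41.9 and 61.3 in untreated floxed cells (-4.09 ± 0.14). Rsad2, viperin, read 4274, 4077 and 4169 in treated wild type and 396, 463 and 389 in treated floxed cells (-3.28 ± 0.10, and -2.93 ± 0.10 without the drug). Isg15, the ubiquitin-like modifier, was lower by about as much with as without the drug (-2.98 ± 0.077 and -2.71 ± 0.077), as were Ifit2 (-2.91 ± 0.088 and -2.84 ± 0.088) and Zbp1 (-2.73 ± 0.12 and -2.53 ± 0.12). These genes did not pass the interaction. Of the whole list, 2 up and 3 down passed it.

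Ifi27l2b (-3.68 ± 0.097), Cmpk2 (-3.17 ± 0.088) and Rimkla (at least 13.8-fold lower) were the other lowest genes that were lower in both comparisons without passing the interaction. Nlrc5, the activator of MHC class I genes, was lower with and without the drug (-2.67 ± 0.22 and -2.54 ± 0.22), a size that depends on the offset since 2 of 3 treated floxed arrays lay under 30. MHC class I loading genes had 2 higher and 6 lower among 15. MHC class II and costimulation genes had 2 higher and 7 lower among 14, with the costimulator Cd86 at 559.6, 602 and 566 in treated wild type and 125, 111 and 134 in treated floxed cells (-2.09 ± 0.10, and -1.04 ± 0.10 without the drug) and the class II chain H2-Aa lower (-1.07 ± 0.099).

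Of 24 genes of mitosis and the spindle, 17 were higher and 0 lower, at a median of 0.44, or 0.43 with genes at background set to their bound, and without the drug 18 higher and 0 lower at 0.70. With median scaling 11 were higher with the drug. Plk1, a mitotic kinase, read 340.5, 358 and 379 in treated wild type and 674, 811 and 606 in treated floxed cells (0.92 ± 0.11). Mki67, the Ki-67 antigen gene, read 601, 531 and 598 in treated wild type and 1004, 1113 and 887 in treated floxed cells (0.78 ± 0.10). Both were as much higher without the drug (0.79 ± 0.11 and 0.96 ± 0.10). Replication genes had 13 higher and 1 lower among 23, led by the polymerase and primase genes Pola1 (1.43 ± 0.18) and Prim1 (1.25 ± 0.11) and followed by Rrm2 (0.92 ± 0.11). Cdc45 of this list was lower (-0.60 ± 0.08). Without the drug 18 replication genes were higher and 0 lower, at a median of 0.51 against 0.39 with it. Of the list, 1 up and 2 down passed the interaction. With median scaling 9 were higher with the drug.

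Genes that slow or set the G1 phase had 2 higher and 9 lower among 19. Gadd45a, induced by growth arrest, read 3471, 3525 and 3362 in treated wild type and 463, 446 and 506 in treated floxed cells (-2.83 ± 0.083, and -1.01 ± 0.083 without the drug), and Btg2, an antiproliferative gene, read 277, 303 and 256 in treated wild type and 62.2, 57.0 and 70.0 in treated floxed cells (-1.90 ± 0.096, and -0.45 ± 0.096 without the drug). Ccnd1, cyclin D1, was lower (-1.49 ± 0.091) and Rb1 was higher (1.13 ± 0.089). Targets of p53 had 3 higher and 9 lower among 17, and 5 lower with median scaling or without between-array normalization. Perp, a desmosome gene of that list, read 3378, 3178 and 3639 in treated wild type and 378, 378 and 460.5 in treated floxed cells (-3.02 ± 0.11, and -0.67 ± 0.11 without the drug), with 3553, 3048 and 3097 in untreated floxed cells. In the BCL2 family, with 4 higher and 6 lower among 14, the death genes Pmaip1 (-1.32 ± 0.089) and Bmf (-0.89 ± 0.085) were lower and the survival gene Bcl2 was higher (0.86 ± 0.091), a call lost with the probes of a gene averaged.

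Plin2, the coat of lipid droplets, read 6631, 6036 and 6463 in treated wild type and 830.3, 839 and 721 in treated floxed cells (-2.98 ± 0.11), and Dgat1, the last enzyme of triglyceride synthesis, read 1747, 1809 and 1791 in treated wild type and 219, 201 and 280.0 in treated floxed cells (-2.86 ± 0.13). Both were lower without the drug too (-2.18 ± 0.11 and -1.06 ± 0.13), and Dgat1 was further below wild type with it (interaction adjusted p = 4.71e-05). Scd1 (-1.12 ± 0.10) and Fabp5 (-0.93 ± 0.11) were lower as well. The list had 3 higher and 7 lower among 21. Cholesterol synthesis genes had 7 higher and 0 lower among 18, led by Idi1 (1.40 ± 0.098) and Fdft1 (1.19 ± 0.12), and 5 higher and 0 lower without the drug.

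Glycolysis and hypoxia genes had 13 higher and 2 lower among 20, and 8 higher with median scaling. Without the drug 10 were higher and 0 lower, at a median of 0.45 against 0.30 with it. Of the whole list, 2 up and 1 down passed the interaction. Car9, a carbonic anhydrase induced by low oxygen, read 305, 290.5 and 273 in treated wild type and 1044, 971 and 1131 in treated floxed cells (1.80 ± 0.088) and was higher without the drug (2.19 ± 0.088). Ankrd37 (1.40 ± 0.085) and Ndrg1 (1.05 ± 0.089) were higher with the drug by more than without it (interaction adjusted p = 0.00312 and 0.00775). P4ha2, a prolyl hydroxylase of collagen, was at least 3.93-fold higher, and was higher without the drug too. Oxidative phosphorylation genes had 8 higher and 2 lower among 21, and 1 higher and 0 lower without the drug. With the drug, 1 was higher and 1 lower with median scaling, 5 were higher in a fit of the treated groups alone and 4 without treated wild type array 1. Ribosome biogenesis genes had 11 higher and 0 lower among 19, led by Polr1a, the large subunit of RNA polymerase I (1.46 ± 0.096).

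Lysosome genes had 1 higher and 13 lower among 24, among them Gpnmb, a MITF target in pigment cells (-1.28 ± 0.088), the proton pump gene Atp6v0d2 (-1.26 ± 0.10) and Gla, alpha-galactosidase (-1.18 ± 0.075). In the unfolded protein response list, 8 were higher and 4 lower among 20, a balance of 4 and 4 with median scaling, and 5 were higher without treated wild type array 1 or without treated floxed array 2. Its stress genes Chac1, at 1232, 1153 and 1101 in treated wild type and 159, 175 and 132 in treated floxed cells (-2.79 ± 0.10, and -1.92 ± 0.10 without the drug), Asns (-1.38 ± 0.091) and Trib3 were lower, and the chaperone Hspa5 was higher (1.11 ± 0.093).

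Genes around extracellular ATP and adenosine had 7 higher and 4 lower among 14. While Nt5e was lower, Entpd1, the CD39 enzyme that turns ATP into AMP, was higher at 442, 385 and 404 in treated wild type and 1404, 1510.5 and 1128 in treated floxed cells (1.67 ± 0.12), and Ada, which removes adenosine, was higher (1.10 ± 0.096). Entpd1 was also higher without the drug (1.14 ± 0.12). Imprinted growth genes had 5 higher and 2 lower among 15, a median that changed sign with scaling. Beside Igf2, the neighbouring H19 was higher at 42.5, 42.0 and 37.1 in treated wild type and 103, 100.2 and 80.2 in treated floxed cells (0.96 ± 0.11, and 0.092 ± 0.11 without the drug), as was Igf2r, which clears IGF2 (0.85 ± 0.083). In the aryl hydrocarbon receptor list, with 3 higher and 3 lower among 8, Cyp1b1 was lower (-1.47 ± 0.08).

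Several control lists moved as well. Of 7 sex-specific genes, 3 were higher and 3 lower. The higher ones were Y-linked, with Eif2s3y at 79.5, 92.8 and 116 in treated wild type and 270.2, 245 and 304 in treated floxed cells (1.37 ± 0.12), Uty (0.65 ± 0.098) and Kdm5d (0.64 ± 0.11), and Xist, the RNA of the inactive X chromosome, was lower (-0.60 ± 0.10). The Y-linked genes were higher without the drug too (0.79 ± 0.12 for Eif2s3y). The labels do not give the sex of the mice, and a part of sex in other differences was not tested. Housekeeping genes had 4 higher and 0 lower among 9, up to 0.75 ± 0.13 for Pgk1. Textbook oestrogen receptor targets, listed because the drug is a ligand of that receptor, had 3 higher and 2 lower among 11. Immediate early genes had 5 higher and 6 lower among 20, a balance of 5 and 3 without between-array normalization, 3 and 4 with median scaling and 5 and 9 where only probes above background set the scale, with Zfp36 (-1.84 ± 0.083) and Fos (-1.67 ± 0.11) lower and Dusp2 higher (1.33 ± 0.15).

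The untreated comparison showed how much of each difference was present without the drug. It called 3300 of 19084 genes (17.3%), 1792 higher (9.39%) and 1508 lower (7.90%), and its split of probes, 54.0% higher, became 73.1% with median scaling and 33.6% without between-array normalization. Of the 621 genes at least 2-fold higher with the drug, 339 (54.6%) were also higher without it and 415 (66.8%) passed the interaction upwards, with 189 doing both and 56 neither. Of the 556 at least 2-fold lower genes, 420 (75.5%) were also lower without the drug and 362 (65.1%) passed the interaction, with 243 doing both and 17 neither. Their median was 1.25 with and 0.47 without the drug for the higher genes, and -1.43 and -0.70 for the lower ones. The treated and untreated comparisons share no array, but the interaction uses both.

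Over all genes the interaction called 2482, 1226 upwards (6.42%) and 1256 downwards (6.58%), and 2976 probes (11.3%). This contrast was the most sensitive to scaling. Over probes 48.5% of its calls were upwards, against 27.8% with median scaling and 79.0% without between-array normalization, which moved the median of all probes to -0.13 and 0.12. Examples of named genes that did not pass without the drug and passed the interaction are Cldn11, Nt5e, Mpo, Prtn3, Anxa2, Tph1, Tpsb2, Hs6st2 and Cd81. Klk8, a kallikrein, read 167, 171 and 174 in treated wild type and 821, 923 and 825 in treated floxed cells (2.22 ± 0.09) and was as much higher without the drug (2.08 ± 0.09). Cd55, which protects cells from complement, was higher in both (2.20 ± 0.19 and 1.33 ± 0.19).

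**Figure D4:**
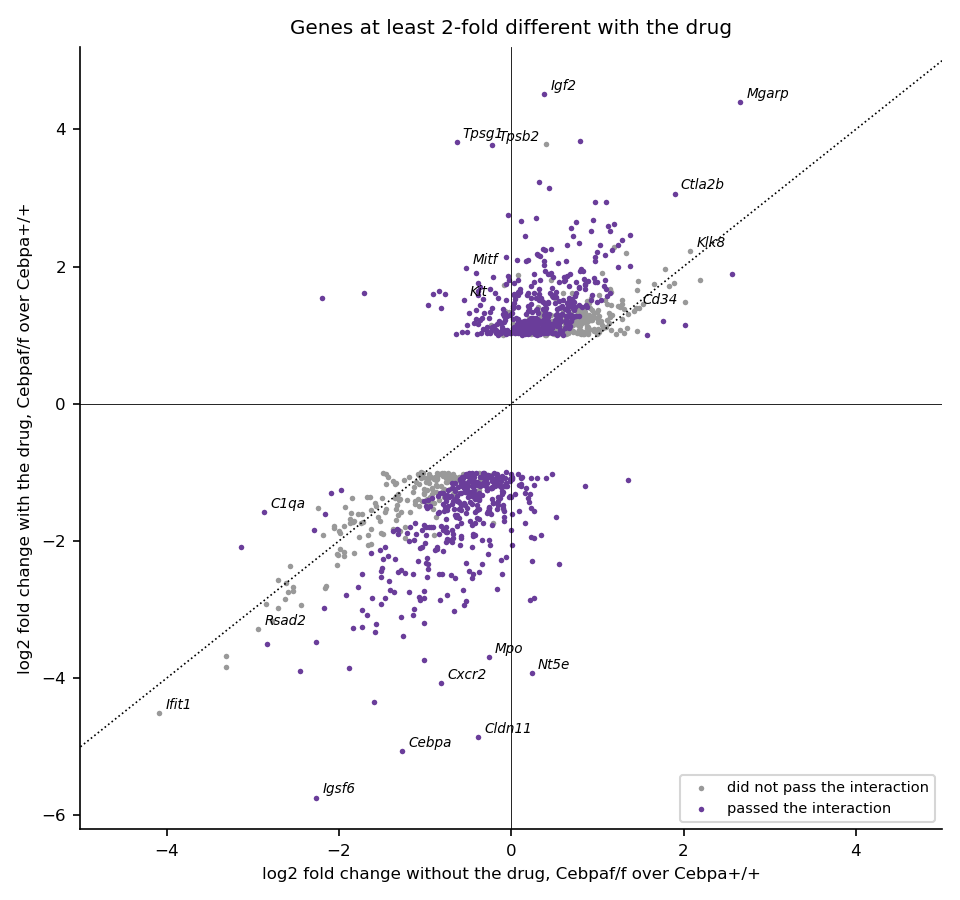
Log2 fold change of floxed over wild type basophils with the drug (vertical) against the same without the drug (horizontal) for genes at least 2-fold different with the drug past the limma test. Purple points passed the interaction and grey points did not, and on the dotted diagonal both differences are equal. Ifit1 and Rsad2 lie close to the diagonal, whereas Nt5e, Cldn11, Mpo, Tpsb2, Tpsg1 and Igf2 lie near the vertical line of no difference without the drug. Genes inside ± 1 on the vertical axis are left out by the 2-fold rule, and Plvap lies above the plotted range.

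The 6 arrays of fresh basophils and mast cells, none of them used in the treated comparison, were used to class genes by cell type. Of the 1558 genes at least 2-fold higher in fresh basophils, 757 (48.6%) were lower in treated floxed cells and 248 (15.9%) higher, at a median of -0.33. Of the 1312 genes at least 2-fold higher in mast cells, 662 (50.5%) were higher and 110 (8.38%) lower, at a median of 0.37. Among the 16214 genes in neither class 15.4% were higher and 13.7% lower. The classes were not matched for brightness, and the part of dim genes in the smaller shares of this last class was not tested. Read the other way, 326 of the 556 genes at least 2-fold lower in treated floxed cells (58.6%) were basophil-high and 15 (2.70%) mast-high. Of the 621 at least 2-fold higher, 265 (42.7%) were mast-high and 59 (9.50%) basophil-high. Without the drug the basophil-high class had 235 genes (15.1%) higher and 467 lower, and the mast-high class 22.5% higher and 9.76% lower.

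Exceptions to this pattern were large for single genes. Prg2 and Apoe were far higher in fresh basophils than in mast cells (7.61 and 4.83 on the log2 scale) and yet higher in treated floxed cells, and Igf2 and Cldn11 were near 0 between the cell types (-0.077 and -0.05). Fresh basophils came straight from marrow, whereas the mast cells had grown in culture, so that cell type and culture cannot be told apart in that class.

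**Figure D5:**
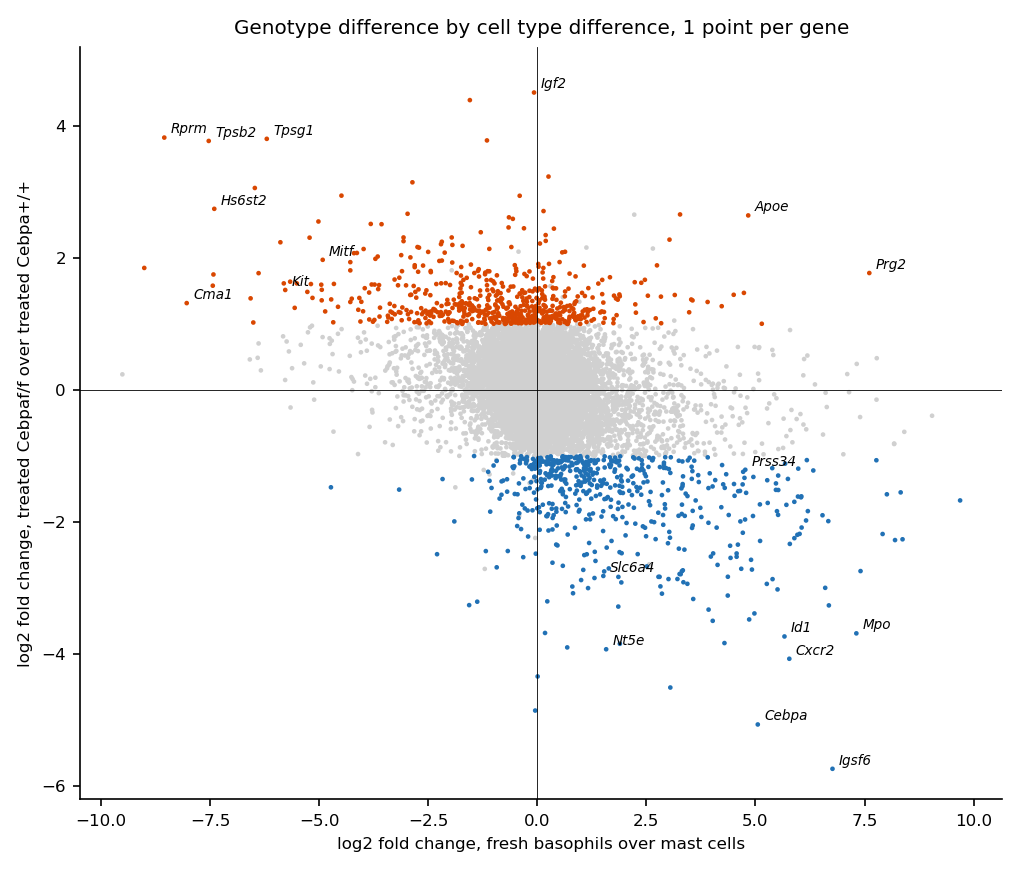
Log2 fold change of treated floxed over treated wild type basophils (vertical) against the log2 fold change of fresh basophils over mast cells (horizontal), 1 point per gene. Coloured points are the genes at least 2-fold higher (orange) or lower (blue) past the limma test, and 1 gene, Plvap, lies above the plotted range. Most blue points are on the right, the side of fresh basophils, and orange points are more often on the left, with Prg2 and Apoe among the exceptions.

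Around Cebpa itself, the 20 nearest genes above background on chromosome 7 were compared, in the order of the RefSeq table. With the drug 5 were higher, Pepd (0.46), Cebpg, Faap24 (0.71), Cep89 (0.45) and Zfp507 (0.72), and 4 were lower, Scgb1b30 (-0.55), Wtip (-0.52), Rgs9bp (-0.52) and Tshz3 (-0.52). The calls of Cep89 and Rgs9bp were lost without treated floxed array 3 and array 1, respectively. With median scaling Cep89 and Pepd did not pass, nor did Cep89 with scaling on probes above background. Without the drug 1 neighbour was higher and 3 were lower. Cebpg, the direct neighbour, read 116, 88.1 and 93.7 in treated wild type and 162, 164 and 152 in treated floxed cells (0.61 ± 0.11), and without the drug was lower in floxed cells (-0.45 ± 0.11).

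Among the 1177 genes at least 2-fold different with the drug, 177 had several probes. Another probe of the same gene passed in the same direction for 110 of them and in the other direction for 6, which were Gnas, P2rx7, Phldb3, Pwwp2a, Slc7a4 and Tcf12. With the probes of a gene averaged, Gnas, Slc7a4 and Tcf12 did not pass. Plvap read background on all treated wild type arrays but 5785 on 1 of the 3 untreated wild type arrays, the others being under 30, so its probe was not relied on.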

How the data were processed

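RNA of all 18 samples was extracted with Trizol and columns, labelled with 1 red dye and hybridised to arrays, per the labels' protocols. The authors deposited 1 table of probe intensity values on a linear scale, from -9 to 65478. The labels name no scanner, background correction or normalization step that came before. Probe names came from GEO's platform annotation, in which 21876 of 26423 probes have 1 symbol, 0 several and 4547 none. 21825 probes matched the RefSeq table of GRCm38.p6 by gene number. The deposited values were quantile normalized over the 12 cultured arrays and set to log2(intensity + 16), and limma 3.58.1 (R 4.3.3) fitted 1 mean per group with Benjamini-Hochberg adjustment. The fit was tested on simulated data. For a gene with several probes the brightest over all 18 arrays was used, also where others disagreed. Precision is limited by the 3 arrays a group.

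The comparison and the 51 gene lists (861 genes, 781 measured) were chosen with earlier results of these data known. Named genes are the 4 markers given with the comparison, and the 15 highest and 15 lowest differences among genes without overlap that passed the interaction in the same direction. To these come the 5 highest and 5 lowest that passed both comparisons but not the interaction, and the 5 brightest of each direction past 2-fold. Of each list up to 6 members past the test are named by size, with defining members that did not pass. Cdc45, Cx3cr1, Hdc, Ly96 and Serpinb6a and the genes around Cebpa on chromosome 7 were named beyond that rule, after their values were seen. The main fit did not pair arrays by replicate number. Correlations of deviations from group means ran from -0.376 to 0.155 between same-numbered arrays and from -0.306 to 0.356 between differently numbered ones. As the deviations of 3 arrays from their mean are tied to each other, these ranges cannot decide whether arrays were paired. Alternatives were other scalings, an offset of 50, a filter on dim probes, other variance models, a replicate block, single arrays left out and a fit of the treated groups alone. No batch is given.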

Additional observations from a re-analysis of the deposited data

Results flagged for a closer look

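The difference between genotypes itself differed between treated and untreated cells for 2976 probes by limma's interaction test (11.3% of 26423). The largest interaction differences on the log2 scale were downward for Cldn11 (-4.47 ± 0.19), Nt5e (-4.17 ± 0.11) and Cebpa (-3.80 ± 0.14), and upward for Tpsg1 (4.44 ± 0.18), Igf2 (4.13 ± 0.14) and Tpsb2 (4.00 ± 0.17). Cldn11 read under 30 on all treated floxed arrays, so its value depends on the offset of 16.

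Another 137 genes passed both genotype comparisons in opposite directions and the interaction. Clca1, a mucus-related secreted protein gene, read 306 ± 13.6 in treated wild type and 919.9 ± 101 in treated floxed cells (SD, n = 3), and 956 ± 33.5 and 197 ± 19.2 without the drug. Frzb, a secreted Wnt antagonist, was higher with the drug (1.62 ± 0.099) and lower without it (-1.71 ± 0.099). Poln (1.59 ± 0.10 and -0.91 ± 0.10), Frmpd1 (1.64 ± 0.11 and -0.84 ± 0.11) and Cpb1 (1.44 ± 0.10 and -0.96 ± 0.10) went the same way as Frzb. Igfbp7, an IGF-binding protein gene, was lower with the drug (-1.11 ± 0.085) and higher without it (1.36 ± 0.085), and so was Akr1c18, a progesterone-metabolising enzyme (-0.94 ± 0.12 and 1.95 ± 0.12). Mitf, Cxcr1, Cx3cr1 and Tpsg1 belong to the same group. The causes of these turns were not tested.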

How the results depend on the processing

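The 3 counts of probes past the test kept within 1.5 times their main value under every alternative but 1. The interaction called 1487 probes with median scaling, against 2976, and the cause was not tested. Leaving out each array in turn gave 6933 to 8174 probes for the treated comparison, 2889 to 3972 for the untreated one and 2288 to 2893 for the interaction. With the replicate number as a block they were 7525, 3410 and 2444, so that the block, which rests on a shared number only, moved no count by over 1.5 times. With an offset of 50 the probes at least 2-fold different past the test numbered 887 for the treated comparison, against 1414. They numbered 282 for the untreated one, against 473, and 399 for the interaction, against 673, because a larger offset shrinks the difference of dim probes. Of 206 named genes past the treated test, 198 kept their direction and call under all 22 alternatives and 8 lost the call under at least 1. Those that lost it were Bcl2, Cep89, Gnas, Hdc, Pepd, Rgs9bp, Slc7a4 and Tcf12. Among those not past the test, signs turned as follows on the log2 scale. Gzma, at -0.013, became 0.14 with no between-array normalization, 0.038 without treated wild type array 1 and 0.050 without treated floxed array 2. Mcpt8, at 0.074, became -0.22 with median scaling, -0.055 with no between-array normalization, -0.22 with scaling on probes above background and -0.018 without treated floxed array 2.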

Other observations

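The sets called in both comparisons of genotypes were also listed against each other by direction. Of the 3406 higher genes, 75 were lower without the drug, and of the 3093 lower genes, 62 were higher without it. Among the genes at least 2-fold different with the drug those numbers were 19 of 621 and 6 of 556. Of all higher genes 36.7% were also higher without the drug, and 34.0% of all lower genes were also lower.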
